A study of Mus musculus with 40 samples.

Results

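At 7229 C/EBPb peaks of mouse macrophages, the C/EBPb summit lay over 50 bp from the nearest PU.1 summit. A summit is the point that the deposited list marks within a peak. Each of these C/EBPb peaks also overlapped a SMARCA5 peak. These are the offset sites with SMARCA5. Each was a C/EBPb peak on chromosomes 1 to 19 or X that shared at least 1 bp with a PU.1 peak and with a SMARCA5 peak and shared no base with a CTCF peak. The sites were chosen by the measured peak positions and summit distances, so those values describe the set and support nothing about it. Of 30960 C/EBPb peaks in the list, 30895 lay on these chromosomes, 18143 of them met PU.1, 13486 also met SMARCA5, and 12319 of those were free of CTCF. The summit rule then kept 7229, or 23.4% of the C/EBPb peaks on these chromosomes. The sets placed beside them were 5090 near-coincident sites with SMARCA5, whose summits lay within 50 bp of each other, 2198 offset sites without SMARCA5 and 2236 near-coincident sites without SMARCA5.

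PU.1 is an ETS-family transcription factor that is required for macrophage development and can open chromatin at enhancers. C/EBPb is a basic leucine zipper factor that acts with PU.1 at many macrophage enhancers. SMARCA5, also named SNF2H, is the ATPase of ISWI remodelling complexes, which slide and space nucleosomes along DNA, and CTCF is a zinc-finger protein found at insulators and the anchors of chromatin loops.

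The study carried out chromatin immunoprecipitation and sequencing on bone marrow-derived macrophages, primary cells grown from mouse marrow. The knockout cells came from Smarca5 lox/lox Csf1r-Cre mice and the wild-type cells from Csf1r-Cre mice, and both genotypes were differentiated for 7 days with 4-hydroxytamoxifen each day. In both genotypes Cre was thus under the Csf1r promoter, which is active in the macrophage lineage. C/EBPb, PU.1 and CTCF were each profiled in 2 knockout and 2 wild-type libraries of untreated cells. SMARCA5 was profiled after micrococcal nuclease digestion in 8 libraries, with 2 knockout and 2 wild-type libraries from cells given lipopolysaccharide at 10 ng/ml for 2 h and 2 knockout and 2 wild-type libraries from untreated cells. The series has 40 libraries, and those of H3K27ac were not analysed here. Age is not given in the sources used here, nor whether replicates came from separate animals. The macrophage label was not checked against marker genes, since the lists hold no expression values and no annotation of their build was used.

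The data were 4 consensus peak lists on the mouse build mm39, 1 per protein: 30960 C/EBPb, 67796 PU.1 and 25307 CTCF narrow peaks, and 37071 broad SMARCA5 peaks. No column belonged to a library, a genotype or a stimulus, so knockout and wild-type cells were not compared, and the lists may hold peaks from either. Depth per library is unknown. Each peak carries the authors' fold enrichment and −log10 q, which are the peak's own values and were used only to describe or rank peaks within a list. Each narrow peak lists 1 summit, so a second maximum inside a wide peak is not counted. How calls were merged into these lists is not given. A listed summit may therefore differ from the point of strongest binding, and the offsets below are distances between listed summits. Peaks of a list are not replicates of a condition, and the differences below are therefore descriptions without a test.

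Most offsets were short. The distance from the C/EBPb summit to the nearest PU.1 summit ran from 51 to 1368 bp, with a median of 127 bp and quartiles of 76 and 281 bp. At offset sites without SMARCA5 the median was 104 bp, with quartiles of 70 and 230.75 bp and a maximum of 1060 bp. The offset sites with SMARCA5 thus held more wide offsets, although both sets were cut at the same lower limit.

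Counted in steps of 25 bp, the offset sites with SMARCA5 numbered 1766 at 51 to 75 bp, 1161 at 76 to 100 bp and 650 over 100 and up to 125 bp. The decline then slowed, with 272 sites at 176 to 200 bp and 227 sites at 276 to 300 bp, before 89 sites at 426 to 450 bp. The counts between 176 and 300 bp were therefore close to level, and no separate peak of preferred spacing stood out in this range. Without SMARCA5 the matching counts were 671 at 51 to 75 bp, 389 at 76 to 100 bp and 192 over 100 and up to 125 bp.

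**Figure D1:**
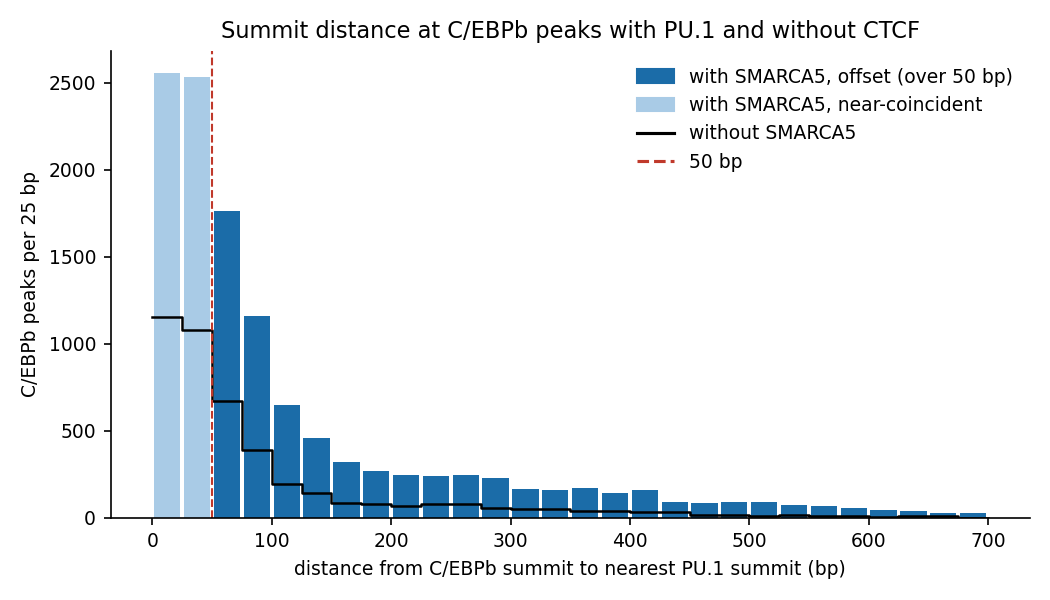
C/EBPb peaks that meet PU.1 and no CTCF peak, counted per 25 bp of distance (x axis, bp) between the C/EBPb summit and the nearest PU.1 summit. Bars are sites with SMARCA5, dark where offset, and the black line is sites without SMARCA5. The dark bars fall from 1766 sites at 51 to 75 bp to a near-level stretch, and 137 offset sites beyond 700 bp are not drawn.

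Neither factor lay consistently to one side. The C/EBPb summit was at the higher coordinate at 3541 of the 7229 offset sites with SMARCA5, or 49.0%, and at 52.1% of offset sites without SMARCA5. Coordinates run along the chromosome and not along genes or motifs, so this says nothing of an order relative to either.

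The limit of 50 bp fell in a continuous range. The 820 sites with SMARCA5 just inside it, at 51 to 60 bp, had a median C/EBPb fold enrichment of 11.9 and a median PU.1 −log10 q of 117. The 941 sites just outside it, at 41 to 50 bp, had a median C/EBPb fold enrichment of 11.8 and a median PU.1 −log10 q of 127. SMARCA5 met 72.4% of all PU.1-bound, CTCF-free C/EBPb peaks at 51 to 60 bp and 71.5% at 41 to 50 bp.

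SMARCA5 was found more often where the summits were further apart. Both the distance and the SMARCA5 overlap entered the choice of the sites, so this is a description of how the set was filled. Among C/EBPb peaks with PU.1 and without CTCF, 76.7% of the 9427 with offset summits met a SMARCA5 peak, against 69.5% of the 7326 with near-coincident summits, a difference of 7.21 percentage points. For background, 73.5% of all 16753 such peaks met SMARCA5, as did 59.6% of the 30895 C/EBPb peaks on these chromosomes.

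With all sites pooled, the share was also higher in the wider distance classes on either side of the limit. It was 68.9% at 0 to 25 bp, 70.1% at 26 to 50 bp, 72.5% at 51 to 75 bp and 74.9% at 76 to 100 bp. It reached 76.9% over 100 and up to 150 bp, 77.9% up to 200 bp, 77.5% up to 300 bp and 82.2% beyond 300 bp. Between 150 and 300 bp it was flat, and the highest share was in the widest class.

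Peak width moved with distance as well. The median C/EBPb peak was 558 bp wide beyond 300 bp and 439 bp wide at 0 to 25 bp, and the median PU.1 peak was 699 bp and 499 bp wide in the same classes. The SMARCA5 share moved with PU.1 width too: among near-coincident sites it was 85.8% in the widest of 4 strata cut at the quartiles of PU.1 width and 56.1% in the narrowest. At like PU.1 width the widest and the shortest distance classes were further apart in the lower 2 strata than in the upper 2. In the narrowest stratum the share was 70.8% beyond 300 bp and 56.1% at 0 to 50 bp. In the second stratum from the narrowest it was 70.0% beyond 300 bp and 64.8% at 0 to 50 bp. In the third stratum from the narrowest the share was 78.5% beyond 300 bp and 78.2% at 0 to 50 bp, and in the widest stratum it was 87.8% beyond 300 bp and 85.8% at 0 to 50 bp. The widest stratum held 1204 of the 1989 sites beyond 300 bp. The part of peak width in the difference was not tested. When the C/EBPb summit itself had to lie inside the SMARCA5 peak, the shares were 75.9% for offset and 68.8% for near-coincident sites, a setting that leaves PU.1 width as it was.

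The size of the difference varied with peak strength and width. Peaks were divided at the quartiles into 4 strata by each of 6 measures (fold enrichment, −log10 q and width of either factor), and the offset share was higher in 24 of 24 strata. It was widest in the lowest stratum of PU.1 −log10 q, with 63.9% for offset against 52.8% for near-coincident sites, or 11.1 points. In the highest stratum of PU.1 −log10 q it was 90.0% for offset against 86.6% for near-coincident sites, or 3.42 points. It was smallest in the next-to-highest stratum of PU.1 width, at 80.5% for offset against 78.2% for near-coincident sites, or 2.35 points, and it was 2.95 points in the highest. The strata share the same peaks, so these are 24 views of one set and not 24 repeats.

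**Figure D2:**
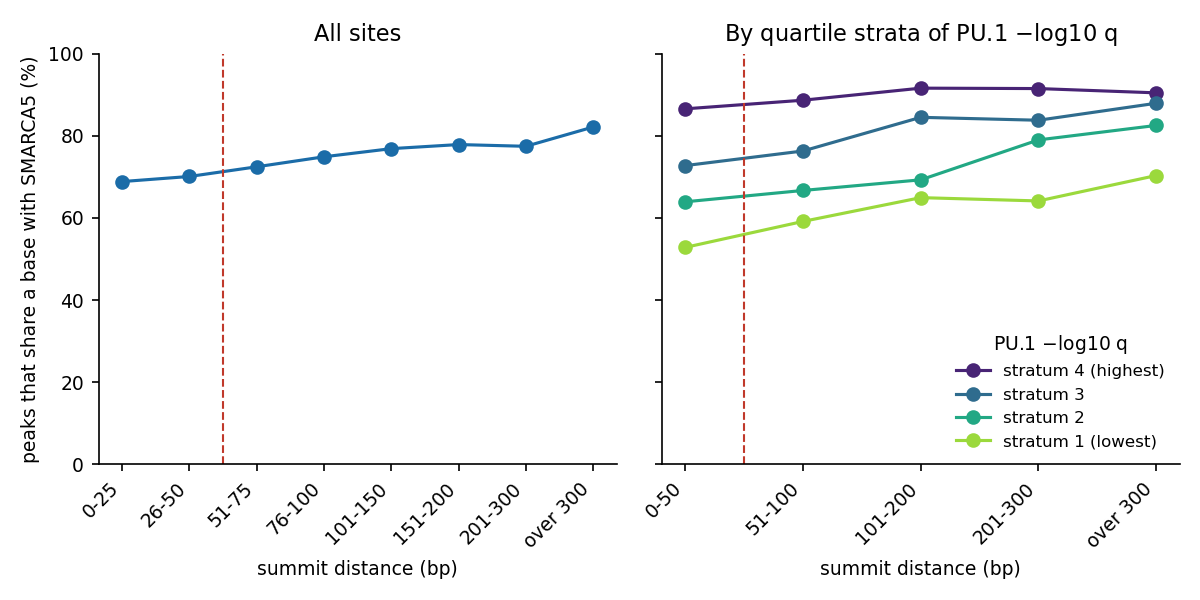
Percent of C/EBPb peaks with PU.1 and without CTCF that share a base with SMARCA5 (y axis), by summit distance in bp (x axis), for all sites (left) and by quartile strata of PU.1 −log10 q (right); the dashed line marks 50 bp. All sites run from 68.9% at 0 to 25 bp up to 82.2% beyond 300 bp, and the strongest stratum of PU.1 lies above the weaker strata in every distance class.

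By −log10 q, PU.1 ranked higher in its own list than C/EBPb did in its list at most of these sites. The PU.1 peaks nearest to the offset sites with SMARCA5 had a median −log10 q of 107, with quartiles of 43.9 and 255. At near-coincident sites with SMARCA5 it was 126, at offset sites without SMARCA5 it was 49.9, and at near-coincident sites without SMARCA5 it was 56.9. By −log10 q both sets with SMARCA5 therefore had higher medians than both sets without it, while offset sites were lower than near-coincident sites within each pair. By PU.1 fold enrichment the sets lay much closer, with medians of 13.4 at offset and 14.8 at near-coincident sites with SMARCA5, and 12.1 at offset and 13.2 at near-coincident sites without SMARCA5.

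By −log10 q, C/EBPb differed less between the sets than PU.1. Its median was 49.9 at offset sites with SMARCA5, 57.7 at near-coincident sites with SMARCA5, 44.7 at offset sites without SMARCA5 and 51.7 at near-coincident sites without SMARCA5. Its fold enrichment had a median of 11.1 at offset sites with SMARCA5, the lowest of the 4 sets, against 12.0 at near-coincident sites with SMARCA5, 12.0 at offset sites without SMARCA5 and 13.2 at near-coincident sites without SMARCA5. The order thus depended on the measure: by −log10 q the offset sites with SMARCA5 stood above those without it, and by fold enrichment below.

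Ranked within each list by −log10 q, the offset sites with SMARCA5 stood at median percentiles of 73.5 (PU.1) and 51.1 (C/EBPb). The C/EBPb peaks were thus of middling strength in their list, while the PU.1 peaks came from the upper part of theirs. The lists differ in length, with 67796 PU.1 and 30960 C/EBPb peaks, so a percentile does not mean the same in both. The PU.1 percentile was above that of C/EBPb at 63.8% of offset sites with SMARCA5 and 63.8% of near-coincident sites with SMARCA5. It was above at 51.5% of offset sites without SMARCA5.

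**Figure D3:**
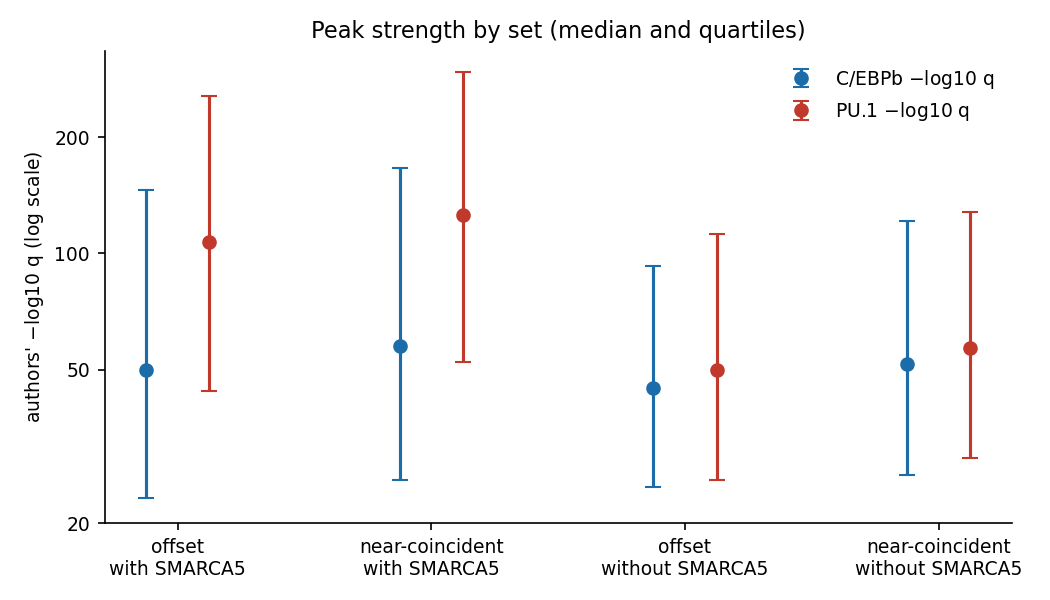
Median (point) and quartiles (bars) of the authors' −log10 q of C/EBPb peaks (blue) and of their nearest PU.1 peaks (red) in the 4 sets, on a log scale. PU.1 medians are 107 and 126 in the sets with SMARCA5 and 49.9 and 56.9 in the sets without it, whereas C/EBPb medians lie between 44.7 and 57.7.

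Binding was weaker at intermediate and wide offsets than at short ones. The median PU.1 −log10 q was 124 at the 2927 sites with summits 51 to 100 bp apart, 109 at the 1706 sites over 100 and up to 200 bp apart, 79.6 at the 962 sites over 200 and up to 300 bp apart and 93.9 at the 1634 sites beyond 300 bp. The median C/EBPb fold enrichment was 11.8, 10.8, 10.3 and 10.8 in the same 4 classes. Among these 4 classes the lowest medians of both factors lay between 200 and 300 bp, but the widest class pools all sites beyond 300 bp. In the 50 bp step that ended at 450 bp, the medians were lower still. They were 9.56 for C/EBPb fold enrichment and 76.4 for PU.1 −log10 q. In the earlier 50 bp steps beyond 300 bp the C/EBPb medians were 10.8 and 10.6, and the PU.1 medians were 86.6 and 85.4. The 4 classes therefore do not fix the distance of weakest binding.

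The strengths of the factors were almost unrelated from site to site. Across the 7229 offset sites with SMARCA5, Spearman's rho between C/EBPb and PU.1 fold enrichment was 0.07, and across the 5090 near-coincident sites it was 0.05. Summit distance had a rho of 0.31 with PU.1 width, 0.27 with C/EBPb width and −0.10 with PU.1 −log10 q across the offset sites. These values are across sites that share the same libraries and depth, and sites are not independent samples.

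Most offset pairs still lay on each other. The nearest PU.1 summit was inside the C/EBPb peak at 81.5% of offset sites with SMARCA5, the C/EBPb summit was inside the nearest PU.1 peak at 86.4%, and both held at 74.2%. At 450 sites, or 6.22%, neither summit was inside the other peak. The PU.1 peak alone reached the other summit at 886 sites and the C/EBPb peak alone at 530 sites, and PU.1 peaks were the wider, with a median of 557 bp against 485 bp for C/EBPb.

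The arrangement changed with distance. The PU.1 summit was inside the C/EBPb peak at 99.9% of sites 51 to 100 bp apart, 96.4% over 100 and up to 200 bp, 73.2% over 200 and up to 300 bp and 38.1% beyond 300 bp. Beyond 300 bp the C/EBPb summit was inside the PU.1 peak at 57.4% of sites. The widest offsets thus included pairs in which one long PU.1 peak, with its listed summit elsewhere, spanned the C/EBPb summit.

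The rule used summits and not peak midpoints. The midpoints of the C/EBPb peak and its nearest PU.1 peak lay a median of 102.5 bp apart at offset sites with SMARCA5, against 38 bp at near-coincident sites with SMARCA5. Summit distances had medians of 127 bp at the offset and 25 bp at the near-coincident sites, so midpoints lay closer together than summits in the set chosen for distant summits and further apart in the set chosen for close ones. At 1537 offset sites, or 21.3%, the midpoints were within 50 bp although the summits were not. The peaks shared a median of 386 bp, or 85.0% of the C/EBPb peak, at offset sites with SMARCA5, against 405 bp, or 97.5%, at near-coincident sites with SMARCA5.

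Nearly all sites were simple pairs. Of the 7229, 46 met 2 PU.1 peaks, and at 41 of these the PU.1 summits flanked the C/EBPb summit. The nearest PU.1 summit belonged to a PU.1 peak that overlapped the C/EBPb peak at all but 10 sites, and those 10 were beyond 300 bp. The sites had 7194 different nearest PU.1 peaks, of which 35 were nearest to more than 1 site.

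The 7229 sites lay in 7010 SMARCA5 peaks, 18.9% of that list. Of these SMARCA5 peaks, 6793 held 1 offset site, 215 held 2 and 2 held 3. Their median width was 3318.5 bp, against 3205 bp for the 4979 SMARCA5 peaks that held near-coincident sites and 2553 bp for the SMARCA5 list. A wide peak has more room for a site, and 298 SMARCA5 peaks with a median width of 5626.5 bp held both kinds, which is 4.25% of those with offset and 5.99% of those with near-coincident sites.

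The other SMARCA5 values lay close together in the 2 kinds of site. The median SMARCA5 fold enrichment was 2.06 at offset and 2.06 at near-coincident sites, and the median −log10 q was 4.46 at offset and 4.28 at near-coincident sites. In the whole SMARCA5 list the medians were 2.08 (fold enrichment) and 3.85 (−log10 q). Across the offset sites, rho between summit distance and SMARCA5 width was 0.03. Of the SMARCA5 peaks that held offset sites, 84.8% held 1 C/EBPb peak and 70.2% held 1 PU.1 peak.

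Both summits lay more often in the middle of the broad SMARCA5 peak than near its edges. The C/EBPb summit was inside it at 98.9% of offset sites and the PU.1 summit at 98.9%. At near-coincident sites with SMARCA5 these shares were 99.0% and 99.1%. The rule required the C/EBPb peak to share a base with a SMARCA5 peak, and SMARCA5 peaks were much wider. Shares this high were therefore largely set by the choice of sites. The C/EBPb summit was in the inner 50% of the peak's width at 67.0% of offset and 66.6% of near-coincident sites, and the PU.1 summit at 67.9% of offset and 66.8% of near-coincident sites. Summits spread evenly along the peaks would give 50%.

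Neither factor was clearly the one nearer the SMARCA5 centre. The C/EBPb summit lay a median of 521 bp from it and the PU.1 summit 514.5 bp. The C/EBPb summit was nearer at 48.3% of offset sites and the PU.1 summit at 51.6%. The summits lay on opposite sides of the centre at 12.3% of offset sites, against 1.85% of near-coincident sites. This share was 4.00% at 51 to 100 bp, 9.44% over 100 and up to 200 bp, 15.5% over 200 and up to 300 bp and 28.3% beyond 300 bp, and a wider gap has more room to span any given point.

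**Figure D4:**
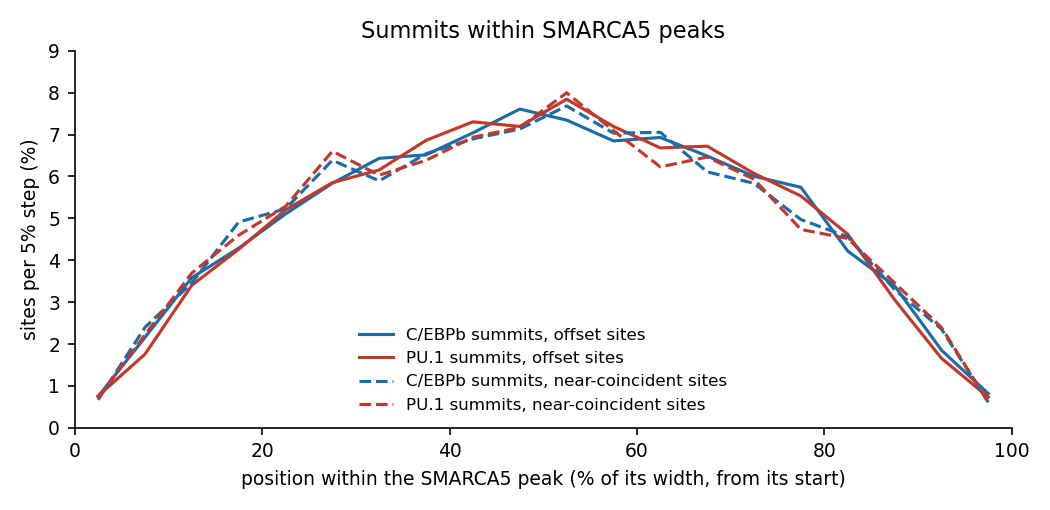
Percent of sites per 5% step (y axis) by position of the summit within the SMARCA5 peak, as percent of its width (x axis), for offset sites (solid) and near-coincident sites (dashed), C/EBPb in blue and PU.1 in red. All 4 curves are highest near the middle and low at both edges, with 67.0% of C/EBPb and 67.9% of PU.1 summits of offset sites in the inner 50%.

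Sites at the top of the C/EBPb list show the arrangement. The 5 offset sites with the highest C/EBPb fold enrichment were led by the peak on chromosome 10 from 7717385 to 7717948, with a C/EBPb fold enrichment of 35.1, a PU.1 fold enrichment of 26.1 and summits 75 bp apart. The next was on chromosome 4 from 13126943 to 13127529, with a C/EBPb fold enrichment of 34.9, a PU.1 fold enrichment of 16.2 and an offset of 64 bp. On chromosome 11 from 77277128 to 77277699 the C/EBPb fold enrichment was 34.8, the PU.1 fold enrichment 18.9 and the offset 130 bp. These 3 had strong C/EBPb peaks, while their PU.1 fold enrichments ran from 16.2 to 26.1.

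The remaining sites of the 5 had PU.1 peaks of low fold enrichment. On chromosome 6 from 87166690 to 87167263 the C/EBPb fold enrichment was 34.5 and the PU.1 fold enrichment 9.67, with an offset of 135 bp. On chromosome 7 from 131012137 to 131012722 the C/EBPb fold enrichment was 34.1 and the PU.1 fold enrichment 8.01, with an offset of 103 bp. The PU.1 peaks at these sites stood at percentiles 37.5 and 22.9 of the PU.1 list by fold enrichment. Their −log10 q was 47.5 on chromosome 6, near the list median of 48.5, and 20.3 on chromosome 7. The SMARCA5 peaks of all 5 sites stood at percentiles from 30.1 to 74.2 of the SMARCA5 list by fold enrichment.

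Other sites ranked high for all 3 proteins. The site whose lowest percentile by fold enrichment over the C/EBPb, PU.1 and SMARCA5 lists was highest lay on chromosome 12 from 108956313 to 108956916. Its C/EBPb, PU.1 and SMARCA5 fold enrichments were 26.8, 25.6 and 2.87, its offset was 78 bp, and its SMARCA5 peak was 1151 bp wide. The next were on chromosome 2 from 33645666 to 33646141, with an offset of 77 bp, and on chromosome 18 from 62853038 to 62853611, with an offset of 138 bp. They were followed by chromosome 2 from 159993958 to 159994557, with an offset of 73 bp, and chromosome 13 from 111423168 to 111423686, with an offset of 60 bp. In all 5, each summit was inside the other factor's peak and the SMARCA5 peak held 1 C/EBPb and 1 PU.1 peak.

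The 3 widest offsets looked different. On chromosome 9 from 88365025 to 88365598 the C/EBPb summit lay 1368 bp from the PU.1 summit, and on chromosome 19 from 46328084 to 46328605 it lay 1245 bp away. At both, the C/EBPb peak, 574 bp wide on chromosome 9 and 522 bp wide on chromosome 19, met the far end of a PU.1 peak 1250 bp wide on chromosome 9 and 1253 bp wide on chromosome 19. On chromosome 4 from 40702019 to 40703237 the offset was 1232 bp, and there the C/EBPb peak was the long one, at 1219 bp, with a fold enrichment of 4.90.

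**Figure D5:**
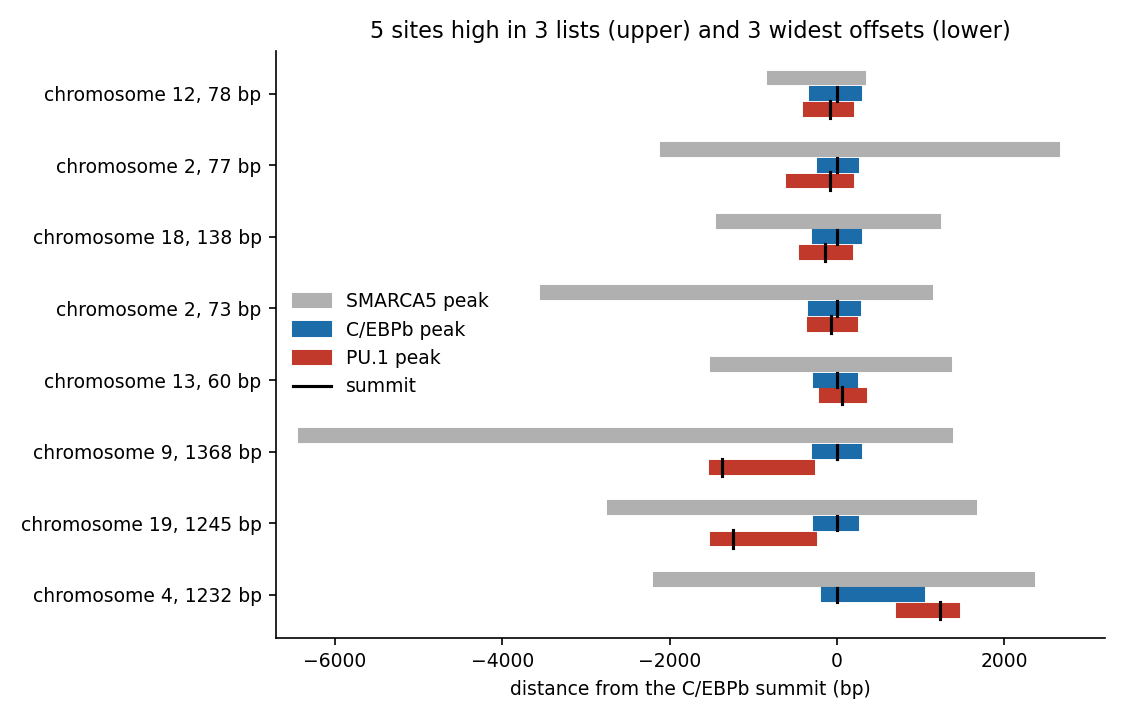
SMARCA5 (grey), C/EBPb (blue) and PU.1 (red) peaks at the 5 sites that rank high in 3 lists (upper) and the 3 widest offsets (lower), drawn to scale against distance from the C/EBPb summit in bp (x axis); black ticks are summits. At the upper sites the summits are 60 to 138 bp apart within overlapping peaks, and at the lower sites they are 1232 to 1368 bp apart.

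The SMARCA5 peaks with the most offset sites held 3 each. One was on chromosome 1 from 154945750 to 154952286 and was 6537 bp wide, with offsets of 108, 284 and 178 bp. The other was on chromosome 13 from 105427322 to 105441080 and was 13759 bp wide, with offsets of 263, 90 and 369 bp. Among the 215 peaks that held 2, the first by position was on chromosome 1 from 34501722 to 34508210, with offsets of 89 and 126 bp.

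The rule barred CTCF from the C/EBPb peak itself, which also limits CTCF summits close by in every set. A CTCF summit lay within 1000 bp of 300 offset sites with SMARCA5, or 4.15%, against 3.60% of near-coincident sites with SMARCA5 and 1.64% of offset sites without SMARCA5. The median distance to a CTCF summit was 17468 bp at offset sites with SMARCA5. The SMARCA5 peak held a CTCF peak at 12.9% of offset and 11.6% of near-coincident sites.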

How the data were processed

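Coordinates are on mm39, and the submitters' processing notes name deepTools 3.5.1, MACS2 2.2.7.1, Picard 2.27.4 and STAR 2.7.9a. What each tool did, and how calls were merged into consensus lists, is not given in the sources used here. The deposited lists give the authors' score, fold enrichment (a ratio over background), −log10 q and, for narrow peaks, the summit's offset from the start as another column. None of the value columns is tied to a library (0 of them), so genotypes and stimuli were not compared, no test was run and no replicate spread exists.

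Peaks were joined by position with Python 3.11.15, NumPy 2.4.6, pandas 2.3.3 and SciPy 1.17.1, and plotted with matplotlib 3.10.9. An overlap is at least 1 bp, a summit is the start plus the offset, and the overlap step was tested on simulated data. The members and lists were chosen with earlier results of these data known. Named regions are the 5 sites with the highest C/EBPb fold enrichment, the 5 whose lowest percentile over 3 lists is highest, the 3 widest offsets and the 3 SMARCA5 peaks with the most sites, with ties by position. Alternatives were other summit limits (25 and 100 bp), an overlap of 50%, the C/EBPb summit inside SMARCA5, the upper 50% of lists, SMARCA5 peaks over 5 kb left out, CTCF ignored, only overlapping PU.1 peaks, autosomes only and, chosen after values were seen, −log10 q above 2000 left out. Gene names, motifs and sequences were not used here, since the gene tables at hand are on another build.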

Additional observations from a re-analysis of the deposited data

Results flagged for a closer look

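No comparison above uses the deposited score of a peak. Of the 7229 offset sites with SMARCA5, 2928 (40.5%) had a deposited C/EBPb score with a decimal part of 0.25 or 0.75, and every score was a multiple of 0.25 within a tolerance of 1e-06. The share was 39.9% at near-coincident sites with SMARCA5 and 32.6% at offset sites without SMARCA5. Such decimals cannot come from a mean of 2 whole numbers. The nearest PU.1 peak had such a score at 3286 offset sites with SMARCA5 (45.5%), and both factors did at 1330. The median C/EBPb −log10 q was 75.1 where only the C/EBPb peak had such a score, 68.4 where both peaks had one, 39.0 where only the PU.1 peak had one and 37.6 where neither did. How the scores were made is not given in the sources used here, and no link to a library or genotype was tested.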

How the results depend on the processing

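No test underlies these results, so a value was taken as moved when it left a 95% interval. This interval was binomial for a share or median. For the difference between the offset and near-coincident shares, it was combined from the binomial intervals of both shares. A count was taken as moved when it changed by more than 1.5 times. These intervals cover counting over peaks, which are not replicates, so they give a scale for the changes and not a measure of stability. Over 11 alternatives (10 planned) and 7 results, 56 of 77 values lay within these limits and 21 moved. With a summit limit of 25 bp the median distance was 87 bp, the PU.1 summit lay inside the C/EBPb peak at 86.3% and the median C/EBPb fold enrichment was 11.3. With a limit of 100 bp there were 4302 sites, with a median distance of 245.5 bp, 69.0% and 10.7 for the same measures. An overlap of 50% of the shorter peak gave 118 bp and 86.1%. With the upper 50% of the C/EBPb and PU.1 lists there were 2096 sites. The SMARCA5 share of offset minus near-coincident sites was then 9.12 points, and the PU.1 summit lay inside the C/EBPb peak at 86.2%. The medians were a distance of 108 bp, a C/EBPb fold enrichment of 18.1 and a SMARCA5 width of 3195 bp. With the upper 50% of the SMARCA5 list there were 3234 sites, a difference of 3.88 points (34.3% offset, 30.4% near-coincident) and a SMARCA5 width of 2999 bp. Without SMARCA5 peaks over 5 kb the difference was 5.10 points (58.8% offset, 53.7% near-coincident), the fold enrichment 11.3 and the width 2813 bp. Another summit limit shifts the count and the distance, a shorter list lowers the count, and leaving out wide SMARCA5 peaks lowers the width, each by its own construction. Another summit limit also adds or drops the closest pairs, nearly all of which had the PU.1 summit inside the C/EBPb peak. That share therefore shifts by construction too. Keeping the upper 50% of the C/EBPb list by fold enrichment likewise raises the median C/EBPb fold enrichment. Removing SMARCA5 peaks likewise lowers the SMARCA5 shares of both offset and near-coincident sites. For the other changes the cause was not tested. No paired analysis was possible because no column of the 4 lists belongs to a single library. Depth is unknown, so which weak peaks were missed cannot be told.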

Other observations

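The offset sites with SMARCA5 were spread over all chromosomes examined. They made up 20.2 (chromosome 18) to 25.6 (chromosome 4) of every 100 C/EBPb peaks on the autosomes, with a median of 23.9, and 17.0 on X. The SMARCA5 share was higher for offset than for near-coincident peaks on 20 of 20 chromosomes, by unequal amounts. It was 72.4% against 71.5% on chromosome 15 and 77.7% against 64% on chromosome 12. Distance and SMARCA5 overlap both entered the choice of the sites. The chromosomes also come from the same lists, so these are not 20 repeats. The offset sites with SMARCA5 lay near each other more often than the other sets. The next site of the same set was within 10 kb at 18.4% of offset sites with SMARCA5. This share was 14.3% at near-coincident sites with SMARCA5 and 4.05% at offset sites without SMARCA5. These sets differ in size, which by itself changes such spacing.

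Stronger C/EBPb peaks had slightly stronger PU.1 peaks and slightly shorter offsets. In 4 strata of the offset sites cut at the quartiles of C/EBPb −log10 q, from lowest to highest, the median PU.1 −log10 q was 95.9, 102, 114 and 119 and the median offset was 140, 130, 124 and 117 bp. The median C/EBPb peak width was 422, 423, 477 and 552 bp in the same strata. These are medians over sites of the same libraries, given without a test. The nearest PU.1 peak met a CTCF peak at 102 offset sites with SMARCA5, or 1.41%, although the C/EBPb peak met none.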
